A study of Mus musculus with 2 samples.

Results

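The replication-dependent histone genes of the mouse adrenal gland were examined by DNase-seq, an assay in which the enzyme DNase I cuts open chromatin and leaves DNase I hypersensitive sites (DHSs). They were taken as the protein-coding genes whose GENCODE M21 symbol starts with Hist1h, Hist2h, Hist3h or Hist4h. This gave 67 genes among 21802 protein-coding genes tested, after 3 pseudogenes with such symbols were left out. Of the 67, 54 lie in the Hist1 cluster on chromosome 13, 10 in Hist2 on chromosome 3, 2 in Hist3 on chromosome 11 and 1, Hist4h4, on chromosome 6. By product, 6 encode linker histone H1, 18 H2A, 18 H2B, 12 H3 and 13 H4. Tissue came from B6CASTF1/J males, F1 hybrids of B6 and CAST parents, at 25 days of age. There was 1 library for each of 2 biological replicates, and no treatment or mutation is given. The labels name a different male for each replicate but give both the same donor code, so the spread between them is that of these 2 libraries, and no test across animals was possible.

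These genes make the bulk of the histones that package newly copied DNA. Their messenger RNAs are made in S phase and end in a stem-loop instead of a poly(A) tail. The stem-loop is bound by Slbp, and transcription is governed by Npat in nuclear structures called histone locus bodies. A dividing cell needs much histone in a short time and draws on many gene copies, and H2A and H2B genes often lie head to head. An open promoter is not by itself a sign of transcription, which was not measured here.

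Each gene was scored by its strongest DHS within 1 kb of any of its annotated starts, in the longer of the authors' peak lists, and called open where there was one. Height is the authors' signal value for the DHS. The longer lists held 130945 DHSs in replicate 1 and 157786 in replicate 2, and the low heights were whole multiples of 0.00833 and 0.00888, within 0.05 of a step, as scaled counts would be. Of the adrenal cortex markers, 6 of 6 were open in both libraries, among them Star, which brings cholesterol into mitochondria, at 7.55 and 4.02. Chga, a granule protein of chromaffin cells, measured 5.67 and 2.48. None of 4 macrophage markers was open. Lymphocyte markers were open at 1 of 8 in replicate 1 and 7 of 8 in replicate 2, with heights up to 0.483 and 1.83. Erythroid markers were open at 2 of 4 in each library, with heights up to 1.43 and 1.49. In whole tissue, fewer open cells and less opening per cell cannot be told apart.

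Most of the 67 genes share a sequence feature that their choice by symbol did not use. The search was for a perfect hairpin with a 6-base stem opening with GG and a 4-base loop opening with TT. Such a hairpin was found within 150 bases after the stop codon of 63 of the genes, starting a median of 31 bases after it. The opening letters of stem and loop were thus set by the search, and its rate at other genes was not counted. The forms are shown because they divide the H4 genes from the rest, with the stem in capitals and the loop in lower case. They were read from the reference GRCm38.p6.
Stem-loop of 41 H1, H2A, H2B and H3 genes: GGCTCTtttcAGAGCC
Stem-loop of 9 H1, H2A, H2B and H3 genes: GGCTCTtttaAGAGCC
Stem-loop of 8 H4 genes: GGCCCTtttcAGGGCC
Stem-loop of 2 H4 genes, Hist1h4j and Hist1h4b: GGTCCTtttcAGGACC
Stem-loop of 2 H4 genes, Hist1h4i and Hist2h4: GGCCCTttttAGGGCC
The remaining form belonged to Hist2h2ac, and the 4 genes without a hairpin of the kind searched for were Hist1h2an, Hist1h3g, Hist1h4a and Hist2h2be. The proteins are far fewer than the genes. All 13 H4 genes encode 1 protein of 103 residues, through 12 different coding sequences. The 12 H3 genes encode 3 proteins, the 18 H2A genes 9, the 18 H2B genes 12 and the 6 H1 genes 6. Each gene was counted by its longest annotated coding sequence, so a longer gene model counts as a different protein. Lengths ran from 136 to 181 residues for H3 and from 126 to 138 for H2B.

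Most of the histone genes had an open promoter, but their DHSs were low. In replicate 1, 58 of 67 (86.6%) were open, against 69.4% of all protein-coding genes, and in replicate 2, 56 of 67 (83.6%), against 69.1%. All 56 were also open in replicate 1, so 83.6% of the histone genes were open in both libraries, against 65.8% of all genes. The strongest DHS lay at the same site in both libraries at 48 of the 56 and at a different site at 8. Agreement of sites was not counted over all genes. The open members held 48 distinct strongest DHSs in replicate 1 and 44 in replicate 2, as neighbours can reach the same one. At 12 and 13 members the strongest DHS lay closer to another gene. With each DHS counted only at the closest gene, 56 members were open in replicate 1 and 50 in replicate 2. All genes were not recounted in this way, and the part of clustering in the higher histone share was not tested. Among open genes, the histone median height was 3.43 in replicate 1 and 3.49 in replicate 2, against 8.85 and 6.25 for all open genes. With genes lacking a DHS counted as 0, the histone medians were 3.07 and 2.85, against 4.01 and 2.61 for all genes. Only 11 of the 67 exceeded the median of all open genes in replicate 1, and 11 in replicate 2.

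**Figure D1:**
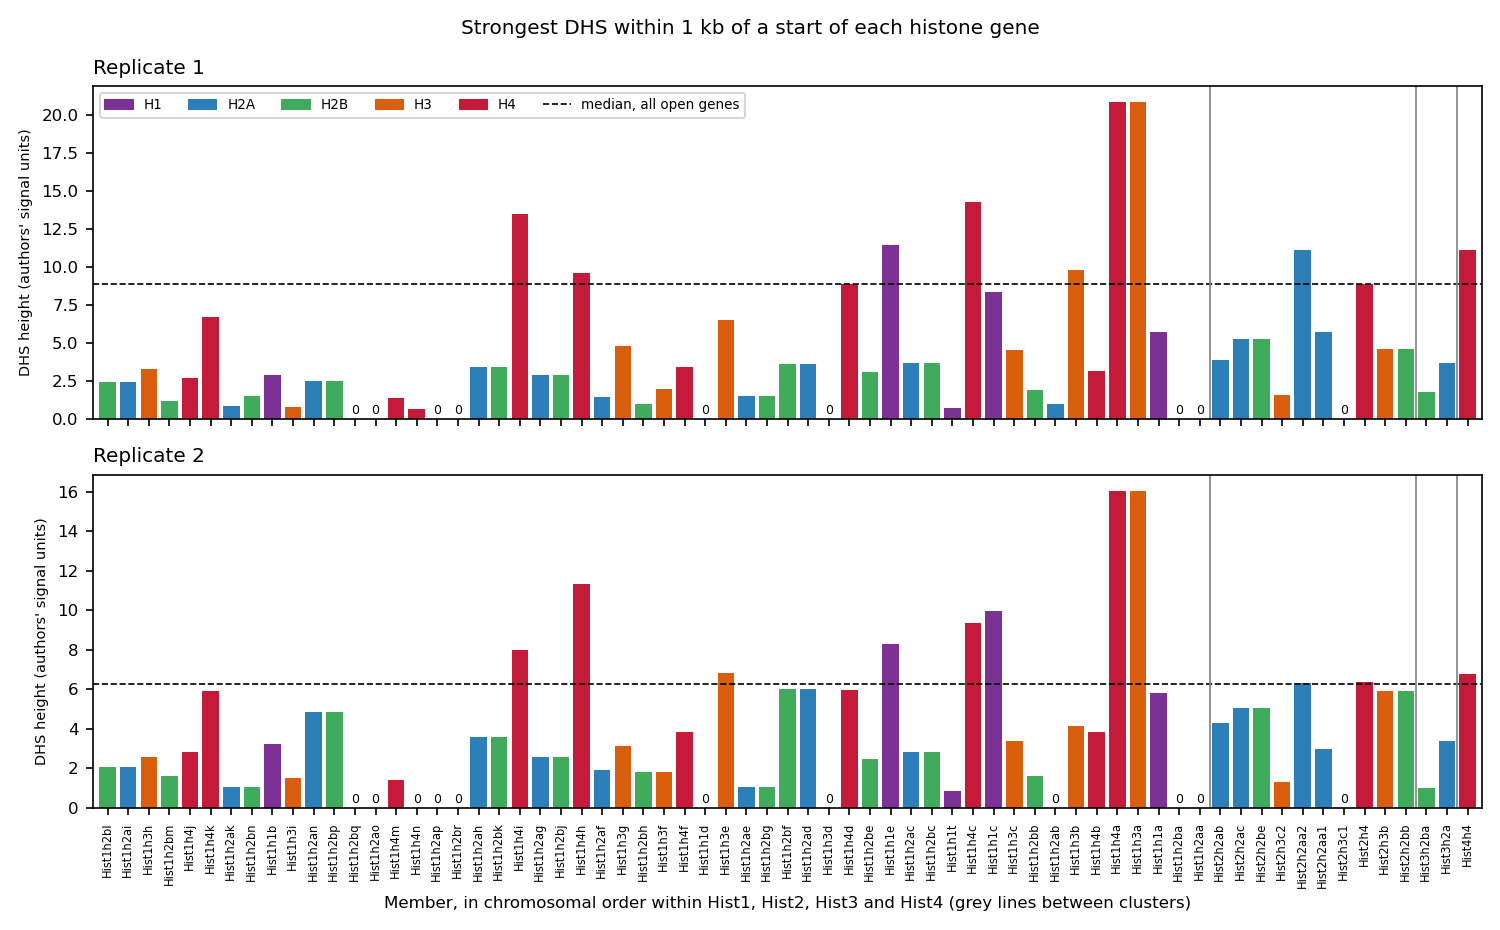
Height of the strongest DHS within 1 kb of a start (authors' signal units, vertical axis) for each of the 67 histone genes in chromosomal order, in replicate 1 (top) and replicate 2 (bottom), with bars coloured by histone class, 0 for no DHS and a dashed line at the median of all open genes. Tall bars are mainly H4 genes, and the shared DHS of Hist1h4a and Hist1h3a is tallest at 20.8 in replicate 1 and 16.04 in replicate 2.

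The H4 genes, which encode the most conserved core histone, had the highest median height of the 5 classes, with H1 close in replicate 2. Their median among open genes was 8.88 in replicate 1 and 6.19 in replicate 2. H2B genes had 2.47 and 2.46, so the ratio was 3.60 and 2.51. The H2B median of replicate 2 is the value of Hist1h2be, whose annotated 5' end lies 35168 bases from its start codon. Its scored DHS lies within the Hist1h1e gene. Within 1 kb of the start codon of Hist1h2be the strongest DHS measured 2.77 and 2.98. H2A genes had medians of 3.42 and 3.19, H3 genes 4.57 and 3.26, and H1 genes 5.72 and 5.82. Of the 10 genes with the highest mean height, 6 encode H4. The H4 median lay near that of all open genes, and 7 of the 13 H4 genes exceeded it in replicate 1 and 6 in replicate 2. Of the 36 H2A and H2B genes, 1 exceeded it in each library. H4 heights still ranged widely, with the lowest open H4 genes at 0.633 in replicate 1 and 1.39 in replicate 2, so the classes overlap.

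**Figure D2:**
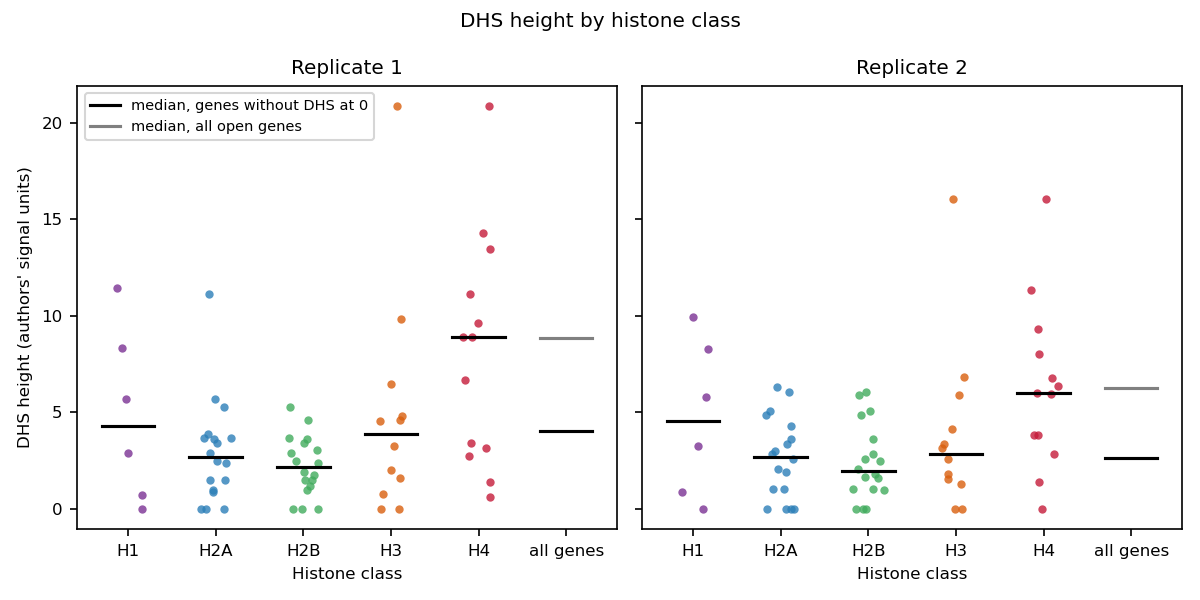
DHS height (authors' signal units, vertical axis) of each histone gene by class in replicate 1 (left) and replicate 2 (right), with points for genes, black lines for class medians with closed genes at 0, and a grey line for the median of all open genes. The H4 median of 8.88 in replicate 1 lies above the medians of the other classes and at the level of all open genes.

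Most H4 promoters, high and low, shared an element that few other promoters hold. The letters GGTCCG, the core of the H4 subtype element bound by Hinfp, were found on either strand in 12 of 13 H4 promoters (92.3%) between 250 bases before and 50 after the 5' end, against 9.54% of all protein-coding promoters. They started a median of 49 bases before the 5' end. The match lay within the strongest DHS at 10 of the 12 in replicate 1 and 9 of 12 in replicate 2. Of these, 9 of 10 and 6 of 9 overlapped a footprint, a short stretch protected from cutting, against 34.0% and 23.2% of such matches at all genes. These 5 H4 promoters are shown with the element, and any TATAAA, in capitals, on the coding strand and in GRCm38.p6 coordinates.
Hist1h4c (chr13:23698445-23698544, minus strand): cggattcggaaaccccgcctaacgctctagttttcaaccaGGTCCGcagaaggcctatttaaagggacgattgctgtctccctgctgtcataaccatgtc
Hist1h4i (chr13:22041353-22041452, minus strand): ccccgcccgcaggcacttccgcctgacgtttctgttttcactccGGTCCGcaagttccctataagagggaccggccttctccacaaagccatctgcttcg
Hist4h4 (chr6:136804406-136804505, minus strand): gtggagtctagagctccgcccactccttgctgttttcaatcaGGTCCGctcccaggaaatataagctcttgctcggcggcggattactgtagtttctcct
Hist1h4d (chr13:23581508-23581607, plus strand): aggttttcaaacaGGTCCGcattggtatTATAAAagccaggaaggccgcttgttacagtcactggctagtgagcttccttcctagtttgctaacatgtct
Hist2h4 (chr3:96263302-96263401, minus strand): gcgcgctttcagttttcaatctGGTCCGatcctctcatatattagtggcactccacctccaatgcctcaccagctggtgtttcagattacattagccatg
Hist1h4c had a height of 14.3 in replicate 1 and 9.34 in replicate 2. Hist1h4i stood at 13.4 and 8.01, and Hist4h4, the sole member on chromosome 6, at 11.1 and 6.80. These 3 lay above the median of all open genes in both libraries. Hist2h4 measured 8.88 and 6.39, and Hist1h4d 8.88 and 5.99, which places both close to that median. The element overlapped a footprint in both libraries at Hist1h4c, Hist1h4i, Hist1h4d and Hist4h4, and in neither at Hist2h4. Hist1h4h, at 9.62 and 11.3, was higher in replicate 2 and carried its element 11 bases before the annotated start.

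Hist1h4a, which had the highest DHS of the members, was the H4 gene without GGTCCG. Its DHS measured 20.8 in replicate 1 and 16.04 in replicate 2, higher than 91.2% and 91.4% of all open promoters. It held TTTCCCGC or TTTGGCGC, forms of the site of the cell cycle factors called E2F, at 4 places. Of all promoters, 2.01% held any. Among H4 promoters 3 of 13 did, the others being Hist1h4d and Hist1h4k, which also hold GGTCCG. Of the 4 matches at Hist1h4a, 3 lay in the DHS, and each of these overlapped a footprint in both libraries. Over all genes, 55.4% and 45.5% of such matches in the strongest DHS did. The DHS of Hist1h4a held 7 footprints in replicate 1 and 3 in replicate 2. The match at Hist1h4d also overlapped a footprint in both libraries. The Hist1h4a promoter is shown for its matches, in capitals along with any CCAAT or TATAAA on either strand.
Hist1h4a (chr13:23761181-23761480, minus strand): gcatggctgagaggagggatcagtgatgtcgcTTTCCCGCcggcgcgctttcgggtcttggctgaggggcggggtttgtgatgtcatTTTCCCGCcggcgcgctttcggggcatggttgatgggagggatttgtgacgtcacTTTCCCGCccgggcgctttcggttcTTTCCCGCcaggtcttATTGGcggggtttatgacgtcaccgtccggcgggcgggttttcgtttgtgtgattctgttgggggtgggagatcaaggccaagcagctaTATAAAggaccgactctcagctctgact
The same DHS was the strongest within reach of Hist1h3a, an H3 gene on the same strand whose start lies about 1 kb away. The DHS over the promoter of Hist1h3a itself, from 250 bases before to 50 after its 5' end, measured 1.72 and 1.22. Its place among the 10 highest genes therefore comes from a DHS nearer to Hist1h4a.

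Among H3 genes, Hist1h3b and Hist1h3e followed. Hist1h3b measured 9.82 in replicate 1 and 4.14 in replicate 2, with a log2 ratio of 1.25 that was the largest of all members. Hist1h3e measured 6.49 and 6.84. At the low end, Hist1h3i measured 0.775 and 1.53. Hist1h3d had no DHS in either library, although 79.9% of the 36-base words within 1 kb of its 5' end occur once in the genome. CCAAT, the site of the factor NF-Y, was found in 11 of 12 H3 promoters.

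The linker histone genes ranged from high to nearly closed. Hist1h1e, a somatic H1 gene, measured 11.4 in replicate 1 and 8.27 in replicate 2. Hist1h1c measured 8.33 and 9.95, but those DHSs were centred 962 and 952 bases after the start, and the DHS over the promoter measured 7.29 and 5.82. Hist1h1a measured 5.72 and 5.82, and Hist1h1b 2.87 and 3.25. Hist1h1t, the testis-specific H1 gene, had the lowest mean height of the members open in both libraries, at 0.700 and 0.853, and no DHS over its promoter. Hist1h1d had no DHS within 1 kb of its annotated start, which lies 1828 bases before the start codon. Within 1 kb of the start codon its strongest DHS measured 3.38 and 2.87. The H1 box, AAACACA, was found in 4 of 6 H1 promoters (66.7%), against 6.40% of all promoters, and each match started 113 to 117 bases before the 5' end. Of these 4 matches, 1 lay in the strongest DHS in replicate 1 and 2 in replicate 2, and none of those overlapped a footprint. Over all genes, 24.6% and 15.6% of H1 box matches in the strongest DHS did, so matches this few cannot show a difference.

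H2A and H2B genes lie largely in divergent pairs, and most pairs with a DHS were scored by the same one. There were 13 pairs of histone genes with 5' ends at most 1 kb apart, 12 of them H2A with H2B, holding 26 members. The 5' ends were between 176 and 660 bases apart, with a median of 268. Windows of 1 kb around starts this close overlap, so the scoring itself favours a shared strongest DHS. The strongest DHS was the same for both genes at 8 pairs in replicate 1 and 10 in replicate 2, and at 8 pairs in both. No pair member could then be ranked apart from its partner. The shared DHS touched the stretch between the 5' ends at 6 of the 8 and 8 of the 10. The exceptions were Hist1h2ae with Hist1h2bg, and Hist2h2ac with Hist2h2be, whose shared DHS lay downstream of one of the starts. At 3 pairs there was no DHS in either library. Over all open members, 20 of 58 in replicate 1 and 24 of 56 in replicate 2 shared their strongest DHS with another member. In each library, 1 more shared it with a non-member only. By comparison, 15.6% and 15.9% of all open genes shared their strongest DHS with another gene. Those shares were not limited to genes with starts as close as in the pairs.

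The tallest shared pair DHS in Hist1 was that of Hist1h2bf and Hist1h2ad in replicate 2. It measured 3.64 in replicate 1 and 6.04 in replicate 2. The DHS of Hist1h2an and Hist1h2bp measured 2.47 and 4.84, while Hist1h2ac and Hist1h2bc shared a DHS of 3.68 in replicate 1 and another, nearer to Hist1h2ac, of 2.83 in replicate 2. The lowest pair was Hist1h2ak and Hist1h2bn, where Hist1h2ak measured 0.883 and 1.05 and Hist1h2bn 1.48 and 1.05. Hist1h2ae and Hist1h2bg shared a DHS of 1.5 and 1.06. CCAAT was found in 18 of 18 H2A and 18 of 18 H2B promoters, against 39.0% of all promoters, and at 2 or more places in each of these 36. ATTTGCAT, the octamer bound by Pou2f1, was found in 8 of 18 H2B and 7 of 18 H2A promoters, against 1.57% of all promoters. Matches were counted per gene, so an octamer or CCAAT between divergent partners can count for both genes. Hist1h2be was searched at its annotated 5' end, 35168 bases from its start codon. None of the 15 octamer matches lay in the strongest DHS in replicate 1 and 2 did in replicate 2, neither in a footprint. CCAAT in the strongest DHS overlapped a footprint at 46.4% of matches in replicate 1 and 16.9% in replicate 2 over all members, against 50.8% and 32.5% over all genes. The stretch between both starts of an open pair, Hist1h2ag with Hist1h2bj, and of a closed pair, Hist1h2ap with Hist1h2br, are shown with CCAAT or its complement in capitals. Both hold several, and both follow the plus strand.
Hist1h2ag/Hist1h2bj (chr13:22042944-22043214, plus strand): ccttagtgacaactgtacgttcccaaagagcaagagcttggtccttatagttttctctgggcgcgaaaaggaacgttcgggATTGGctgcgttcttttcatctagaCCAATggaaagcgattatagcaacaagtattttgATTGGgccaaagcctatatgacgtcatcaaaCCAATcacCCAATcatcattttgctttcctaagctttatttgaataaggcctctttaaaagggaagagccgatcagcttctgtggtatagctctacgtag
Hist1h2ap/Hist1h2br (chr13:21833507-21833743, plus strand): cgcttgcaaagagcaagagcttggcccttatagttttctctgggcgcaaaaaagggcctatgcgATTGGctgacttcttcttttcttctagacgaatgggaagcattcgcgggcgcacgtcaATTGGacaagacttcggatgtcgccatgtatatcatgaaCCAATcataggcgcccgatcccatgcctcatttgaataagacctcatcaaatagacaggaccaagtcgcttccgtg
The shared DHS of Hist1h2ag and Hist1h2bj measured 2.89 in replicate 1 and 2.59 in replicate 2. Hist1h2ap and Hist1h2br had none.

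**Figure D3:**
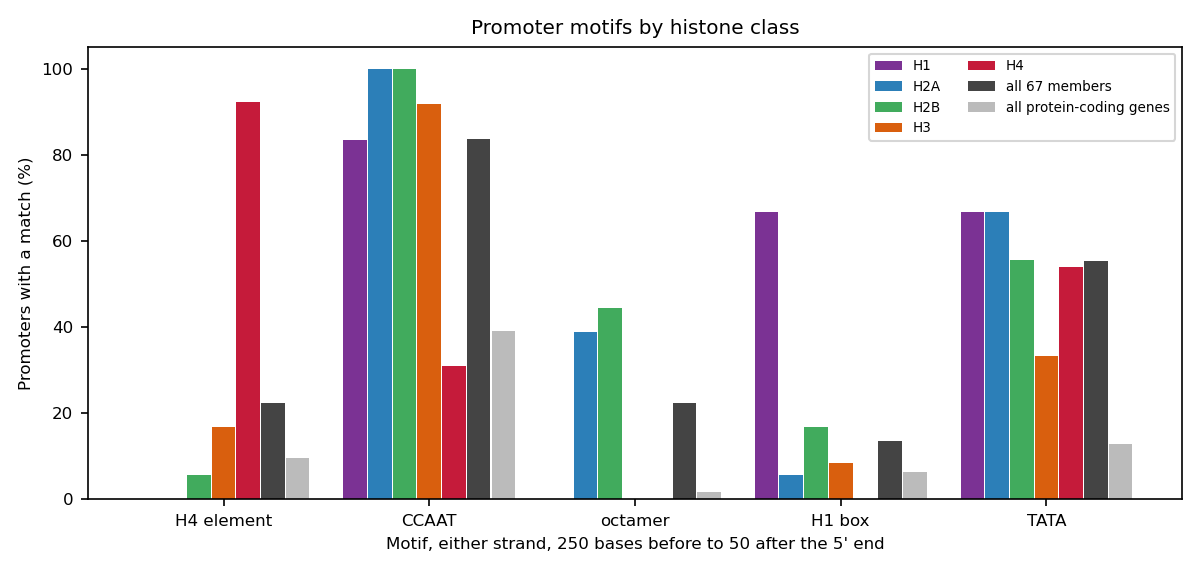
Share of promoters (%, vertical axis) with at least 1 match on either strand to each motif, from 250 bases before to 50 after the 5' end, by histone class, for all 67 members and for all protein-coding genes. The H4 element is most frequent in H4 promoters (92.3%) and the H1 box in H1 promoters (66.7%), the octamer is found only in H2A and H2B among the classes, and CCAAT is frequent in every class but H4 (30.8%).

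TATAAA was found in 37 of 67 histone promoters (55.2%), against 12.7% of all promoters. It was at 15 to 40 bases before the annotated start in 8 of them. At 11 members the annotated 5' end is the start codon itself, so motif distances depend on the gene models. None of the motif strings searched contains another. CpG dinucleotides, counted as observed over expected, reached at least 0.6 in 48 of the 67 promoters (71.6%), against 44.3% of all promoters. Among such CpG-rich promoters, 42 of 48 histone genes were open in replicate 1 and 40 of 48 in replicate 2, against 97.6% and 96.1% of all genes with CpG-rich promoters. Their medians among open genes were 3.43 and 3.60, against 11.7 and 8.50 for all such genes. GC content had a median of 45.3% over the 67 histone promoters, against 55.0% for all promoters.

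In both libraries 9 histone genes had no DHS. One group is a pair of copied divergent pairs, Hist1h2bq with Hist1h2ao and Hist1h2ap with Hist1h2br, where 0% of the 36-base words within 1 kb of the 5' end occur once in the genome. Hist1h2ao and Hist1h2ap have identical coding sequences, as do Hist1h2bq and Hist1h2br. Hist2h3c1 had 19.9% such words, and its near copy Hist2h3c2, at 20.9%, measured 1.58 and 1.31. Hist1h4m and Hist1h4n, whose coding sequences are identical, had 4.83% and 5.09%. Hist1h4m measured 1.38 and 1.39, and Hist1h4n 0.633 in replicate 1 with none in replicate 2. Reads that lie wholly within such copies have more than 1 place in the genome. How the authors treated them is not given in the sources used here, and the part of copying in these low values was not tested. No bases within 1 kb of the 5' end of the 9 genes reached an FDR of 0.05 in either library.

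Another is the testis pair Hist1h2ba and Hist1h2aa, variants made in male germ cells. Their starts lie 306 bases apart, and neither had a DHS in either library, although 90.3% of the words around each occur once. The region before Hist1h2aa holds motifs that open pairs also hold, and is shown for that reason with the CCAAT, TATA and octamer motifs, on either strand, in capitals.
Hist1h2aa (chr13:23934212-23934511, plus strand): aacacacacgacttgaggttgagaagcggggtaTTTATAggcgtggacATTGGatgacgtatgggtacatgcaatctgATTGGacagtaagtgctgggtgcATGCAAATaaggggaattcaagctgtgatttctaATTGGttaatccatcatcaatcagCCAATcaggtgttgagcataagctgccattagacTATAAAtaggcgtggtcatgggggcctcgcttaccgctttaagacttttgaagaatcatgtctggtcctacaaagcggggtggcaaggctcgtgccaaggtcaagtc
The others are Hist1h3d and Hist1h1d, described above. Hist1h2ab, at 0.958 in replicate 1, had no DHS in replicate 2, although 86.3% of its words occur once. Leaving out the 10 members with under 50% such words left 57 genes, of which 53 were open in replicate 1 and 52 in replicate 2. The H4 median among open genes then stayed at 8.88 in replicate 1 and was 6.39 in replicate 2, against 2.47 and 2.46 for H2B.

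**Figure D4:**
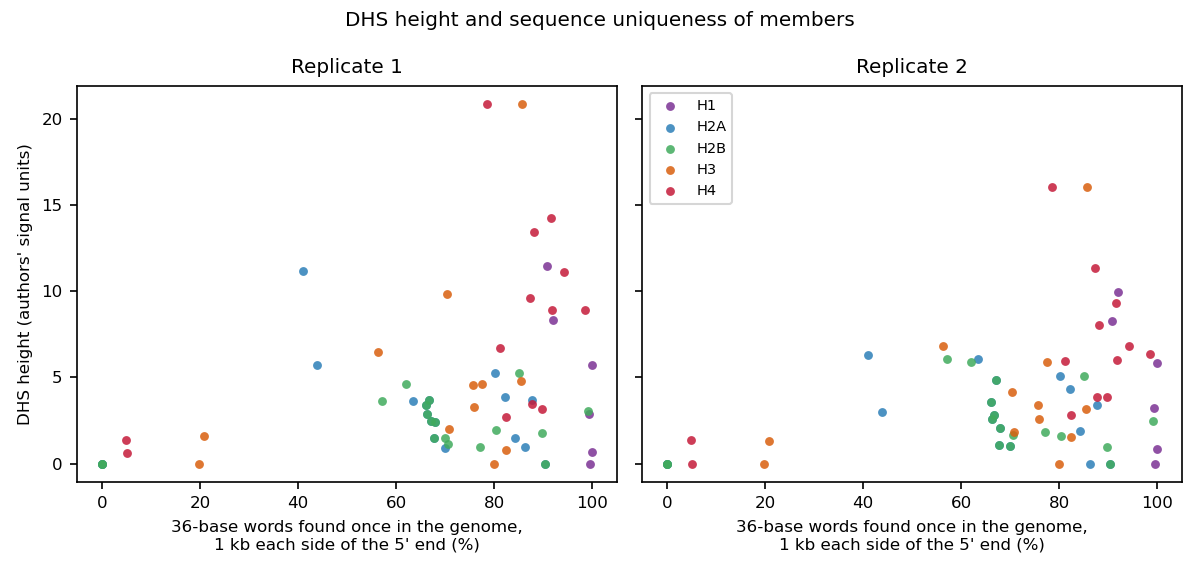
DHS height (authors' signal units, vertical axis) against the share of 36-base words within 1 kb of the 5' end that occur once in the genome (%, horizontal axis) for the 67 histone genes, coloured by class, in replicate 1 (left) and replicate 2 (right). The 4 copied H2A and H2B genes sit at 0% and 0 height, while the other closed genes, apart from Hist2h3c1 and, in replicate 2, Hist1h4n, have mostly unique sequence.

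In the Hist2 cluster, 9 of 10 genes were open in each library, with a median among open genes of 5.27 in replicate 1 and 5.06 in replicate 2. Hist2h2aa2 measured 11.1 and 6.32, and its neighbour Hist2h2aa1, with the same coding sequence, 5.70 and 2.98. In all, 41.1% and 43.8% of the words around them occur once. Hist2h2ac and Hist2h2be shared a DHS of 5.27 and 5.06, and Hist2h2ab measured 3.88 and 4.32. The DHSs of Hist2h2ab were nearest to Hist2h2ac, and those over its own promoter measured 2.52 and 2.14. Hist2h3b and Hist2h2bb shared a DHS of 4.59 nearer to Hist2h3b in replicate 1 and another of 5.90 nearer to Hist2h2bb in replicate 2. In Hist3, Hist3h2a measured 3.68 and 3.38, at different sites in each library, both also the strongest near Trim17. The DHS over its promoter measured 1.72 in replicate 1 and 3.38 in replicate 2. Hist3h2ba measured 1.77 and 0.986. In Hist1, 46 of 54 genes were open in replicate 1 and 44 of 54 in replicate 2.

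Within the Hist1 cluster, the histone genes were open more often than their neighbours. The cluster spans 2.22 Mb, and 47 other protein-coding genes start within it. Of these, 10 were open in each library, against 46 and 44 of the 54 Hist1 members. The 34 vomeronasal receptor genes (Vmn1r), which are expressed in sensory neurons, had 1 open, Vmn1r200, at 0.517 in replicate 1 and 0.409 in replicate 2. The 13 other neighbours had 9 open. The strongest were Zfp322a at 14.97 and 12.12, Abt1 at 14.8 and 9.70, and Zfp184 at 5.43 and 4.18. Hfe, whose product regulates iron uptake, measured 2.93 and 2.15, and Btn2a2 1.70 and 1.88. The span also holds 77 tRNA genes in the RefSeq annotation of the same build. Of these, 49 had a DHS in replicate 1 and 33 in replicate 2, with median heights of 2.53 and 1.48. DHSs within 1 kb of a histone start took 39.5% of the summed DHS height of the span in replicate 1 and 49.8% in replicate 2.

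Replication-independent histone genes and the factors that make histone mRNA had higher medians, while germline histone genes outside the clusters had lower ones. The 11 replication-independent histone genes, whose products are used outside S phase, were all open, with medians of 13.9 in replicate 1 and 9.56 in replicate 2. H2afv and H2afz, the H2A.Z genes, measured 24.3 and 24.0, and 21.2 and 20.6. H2afj was highest in replicate 1, at 25.2, and measured 15.8 in replicate 2. The lowest, H2afy2, a macroH2A gene, measured 2.72 and 1.17. All 17 genes of histone transcription and mRNA processing were open, with medians of 15.7 and 13.3, led by Npat at 28.0 and 22.2. Nfya measured 25.6 and 19.5, Hinfp 15.6 and 19.3, and Slbp 14.5 and 13.9. All 21 genes of S phase and division were open too, with medians of 14.3 and 10.4. Ccne1, a cyclin that starts S phase, was highest in replicate 1 and measured 30.7 and 17.7. E2f1 was highest in replicate 2 and measured 21.1 and 20.1. The lists with all genes open had median CpG observed over expected of 0.91, 0.92 and 0.93, in the order given. Of all genes with CpG-rich promoters, 97.6% and 96.1% were open, with medians of 11.7 and 8.50 among open genes. The germline list held 4 genes, and H1foo, the oocyte H1, had no DHS in replicate 1 and 0.497 in replicate 2, while H2bfm had none in either. The strongest of the list were Hils1 at 1.16 and 1.11 and H1fnt at 0.975 and 0.497.

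The 2 libraries ranked the histone genes alike, but the shift between libraries was smaller for the histone genes than for all genes. Over the 56 members open in both, log2 heights correlated at Pearson's 0.90 and Spearman's 0.90, as a description of genes that share libraries and in part DHSs. The median log2 ratio, replicate 1 over replicate 2, was 0.14 with an SD of 0.50 over members, against 0.46 for all genes open in both. Heights were higher in replicate 1 at 32 of 56 members (57.1%), against 88.3% of all genes. Divided by the median promoter height of each library, the members' ratio turned to -0.36. Only Hist1h3b was more than 2-fold higher in replicate 1, that is 1 of 56 members, against 11.2% of all genes. None of the members was more than 2-fold lower in replicate 1, against 0.592% of all genes. After the same division by the median promoter height these counts turned round, with 0 members more than 2-fold higher, against 2.01% of all genes, and 6 more than 2-fold lower, against 2.2%. The 6 were Hist1h3i, Hist1h2an, Hist1h2bp, Hist1h2bh, Hist1h2bf and Hist1h2ad. They stand for fewer sites, since Hist1h2an shares its DHS with Hist1h2bp, and Hist1h2bf with Hist1h2ad. The most lower in replicate 1 were Hist1h3i, at a log2 ratio of -0.98, and the pair of Hist1h2an and Hist1h2bp, at -0.97. After Hist1h3b, the highest ratios were those of Hist2h2aa1 at 0.93 and Hist3h2ba at 0.84. Lymphocyte markers were open more often in replicate 2, and their part in these ratios was not tested.

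**Figure D5:**
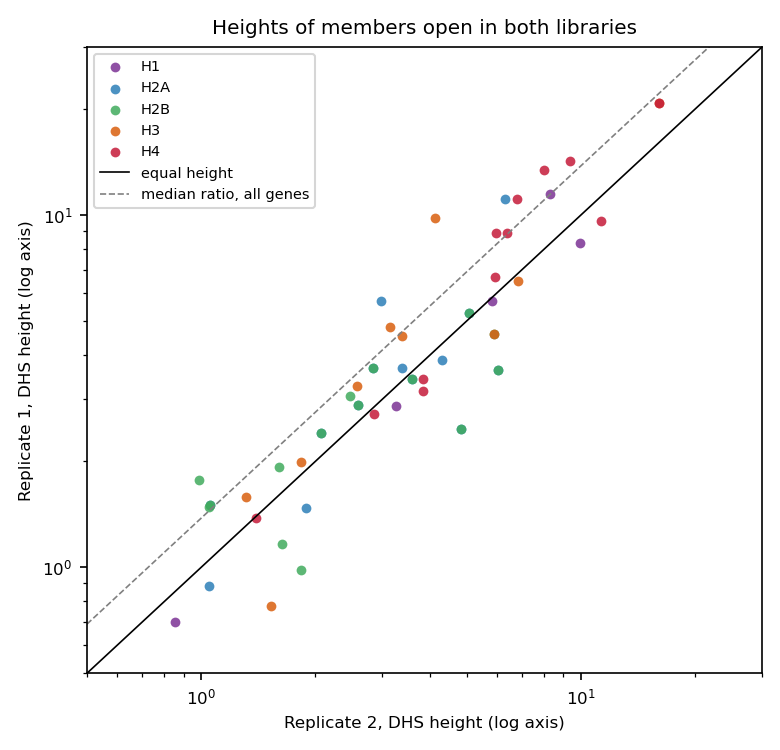
DHS height in replicate 1 (vertical, log axis) against replicate 2 (horizontal, log axis) for the 56 histone genes open in both libraries, coloured by class, with a solid line at equal height and a dashed line at the median ratio of all genes open in both. Most members lie between or near the lines, and Hist1h3b lies farthest above them.

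The strongest DHSs of open members were centred a median of 49.5 bases before the nearest start in replicate 1 and 63.0 in replicate 2. Over all open genes the medians were 28.5 and 31.5. These distances rest on annotated starts, and at 11 members the annotated 5' end is the start codon. All 13 H4 genes had the centre within 200 bases of the start in replicate 1 and 11 of 12 in replicate 2, and 5 of 15 and 8 of 15 open H2B genes did. The share was 65.5% and 71.4% over open members and 79.4% and 78.8% over all open genes. In 14 members in replicate 1 and 11 in replicate 2 the strongest DHS was higher than any DHS over the promoter itself. Median DHS width was 180 bases in each library, against 200 and 196.5 for all open genes. Member DHSs held a median of 3 footprints in replicate 1 and 2 in replicate 2, against 4 and 3 for all open genes. Among all genes with heights between the lower and upper quartile of the open members, the medians were also 3 and 2.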

How the data were processed

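Adrenal gland DNase-seq gave 2 libraries, with 2 deposited peak lists, a false discovery rate list and a footprint list each, in mm10 per the labels. The authors deposited DHS heights as a signal value, scaled per library as the values show, and FDR values (p-value type) of at most 0.05 along the genome and of 0.01 at every footprint. Replicates were not pooled by the authors, since each file names 1 library in the labels. Which aligner, callers and filters the authors used is not given in the sources used here. Counts per library were not used, so counting depth is known only through the height step.

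Genes came from GENCODE M21 on GRCm38.p6. Of 21951 protein-coding genes, 21802 with 54236 starts were kept, and genes off the main chromosomes, with repeated symbols or without a coding transcript were dropped. A DHS within 1 kb had to touch the window by 1 bp. Word uniqueness was counted on both strands over the main chromosomes of the reference, 1 to 19, X and Y. It was not counted in the hybrid genome of these animals. Sequences came from the RefSeq copy of GRCm38.p6. Python 3.11.15, numpy 2.4.6, pandas 2.3.3 and scipy 1.17.1 were used, and the search was tested on simulated data. With 1 group of 2 libraries no test across animals was made. In full were named the members closed in a library, the 10 highest, the 5 lowest open in both, the 3 largest ratios each way, all Hist2, Hist3 and Hist4 members and the testis genes, while 2 of each related list and 5 neighbours were named by height. Slbp, Hinfp, H2afz, H2afy2, Star and Chga were named after their values were seen. The count of chromaffin markers is not reported here. The members and lists were chosen with earlier results of these data known. Alternatives covered the peak list, window, starts, threshold, overlap, scaling, counting of shared DHSs, motif window and word length. The DHS over the promoter window was looked up after the heights were seen.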

Additional observations from a re-analysis of the deposited data

How the results depend on the processing

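The counts of open members kept within 1.5 times of the reported counts under every alternative, from 46 to 62 open in both libraries, 50 to 65 in replicate 1 and 50 to 62 in replicate 2, and without replicate 1 or replicate 2 the count of open members was 56 or 58. Shared pairs numbered 7 or 8, H4 genes with the element 12 and members with under 25% of words occurring once 8. Median member height moved to 2.89 and 2.59 (replicate 1 and 2) with a 500 bp window and to 3.68 and 3.60 with 2 kb. It was 3.43 and 3.49 over open members alone. In replicate 1 it was 2.89 with the DHS centre in the window and 2.89 with each DHS counted once. Of 3 other settings chosen after seeing the data, windows around the start codon moved no result, and the others gave 2.47 and 2.14 with DHSs nearest to the member's own start, and 3.42 and 3.38 in members of mostly unique sequence. The median log2 ratio reversed to -0.36 when scaled to the median promoter height and to -0.26 when scaled to the summed height, since heights at 88.3% of all genes open in both were higher in replicate 1. The first scaling, applied to the counts past 2-fold after seeing the data, moved them to 0 higher and 6 lower in replicate 1. The cause of the other shifts was not tested. A gene without a DHS may lie below the authors' calling limit, which the lists do not show. No paired analysis was possible because there is 1 group.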
